A study of Mus musculus with 6 samples.

Results

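RNA levels of 9 genes of Nodal signalling and the primitive streak were followed in mESCs, mouse embryonic stem cells, of 3 genotypes. The genes *Nodal*, *Tdgf1*, *Lefty1*, *Lefty2*, *Cer1*, *Smad7*, *Eomes*, *Mixl1* and *Gsc* were taken by symbol from a table of read counts for 55385 genes. All 9 were present, and 7 of them reached the minimum of 10 counts in no fewer than 2 libraries that a gene needed to enter the test, while *Cer1* and *Gsc* stayed below it. The cells were wild-type mESCs, mESCs with a heterozygous deletion of the *Wnt6* anchor, and mESCs with a homozygous deletion of it, with 2 libraries per genotype. *Wnt6* encodes a WNT ligand, and the anchor is a region of chromosome 1 that takes part in a long-range contact between Polycomb-marked loci. Cells of all genotypes were kept with LIF, the cytokine that holds mESCs in the pluripotent state, on feeder cells of the CD1 mouse strain, and the study's methods name G4 mESCs, which carry an F1 hybrid mouse background, as the parental line. The comparisons asked which genes changed in expression once the anchor was deleted. The methods speak of biological triplicates for each condition, whereas the labels give 2 libraries each, and whether the libraries of a genotype came from the same edited clone is not given in the sources used here.

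Nodal is a secreted ligand of the TGF-β family that signals through activin receptors and the co-receptor encoded by *Tdgf1* (Cripto) to phosphorylate SMAD2 and SMAD3, which enter the nucleus with SMAD4 and the DNA-binding partner FOXH1. The pathway switches on its own secreted inhibitors, Lefty1, Lefty2 and Cerberus (*Cer1*), and the intracellular inhibitor SMAD7. In the embryo it patterns the epiblast and, with WNT signals, induces the primitive streak, where *Eomes*, *Mixl1* and *Gsc* are expressed in cells that form mesoderm and endoderm. In mESCs the ligand, the co-receptor and the Lefty genes are known to be active already, ahead of the streak.

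The libraries held between 23813912 and 28964706 counts, and 3 counts corresponded to between 0.102 and 0.131 CPM, a count relative to the library total after TMM scaling of that total. This floor covers counting error only. Libraries of the same genotype were further apart than counting error alone would put them (chi-square per degree of freedom, 2.21 to 3.38). *Wnt6* gave 11 and 13 counts in wild-type libraries, 6 and 4 in heterozygous libraries and 0 and 0 in homozygous libraries, the order that the labels give. The 8 pluripotency markers listed (*Pou5f1*, *Sox2*, *Nanog* and others) summed to between 2215 and 2688 CPM over the 6 libraries. The 13 fibroblast markers summed to between 1046 and 1047 CPM in wild-type, 688 and 736 in heterozygous libraries and 440 and 452 in homozygous libraries. Their summed level thus followed the genotype. Of the 12 tested, 11 had a fold change below 0 in heterozygous against wild-type cells, *Twist2* being above 0, and *Lum* had 5 counts at most. In these bulk samples fewer cells of a type and less RNA per cell cannot be told apart. Beyond the methods' word biological, nothing says that these libraries came from separate cultures or clones, and p-values measure the spread between these libraries, which may be technical.

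Measured per length of exon, in RPKM (CPM per kilobase of all annotated exons of the gene), the 9 genes covered a range from strong expression to single reads. *Tdgf1* stood highest with a mean of 257 RPKM over the 6 libraries and a range of 248 to 266. *Lefty1* followed at 52.3 RPKM, *Nodal* at 30.2, *Lefty2* at 15.3 and *Smad7* at 12.3. The streak genes lay far lower, with *Eomes* at 1.26 RPKM and *Mixl1* at 0.458, and *Gsc* and *Cer1* at 0.0685 and 0.0111. Over the 6 libraries no neighbours in this order overlapped except *Gsc* and *Cer1*, and the closest separated pair was *Lefty2* (14.7 to 16.7 RPKM) and *Smad7* (11 to 13.2). Among the 32934 genes with any count, *Tdgf1* ranked at the 99.5 percentile by mean CPM, *Lefty1* at 92.1, *Nodal* at 88.6, *Eomes* at 67.6 and *Cer1* at 20.4. The coefficient of variation over all libraries was lowest for *Tdgf1* (2.71%) and reached 12.3% for *Eomes* and 34.9% for *Mixl1*, the tested gene with the fewest counts.

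**Figure D1:**
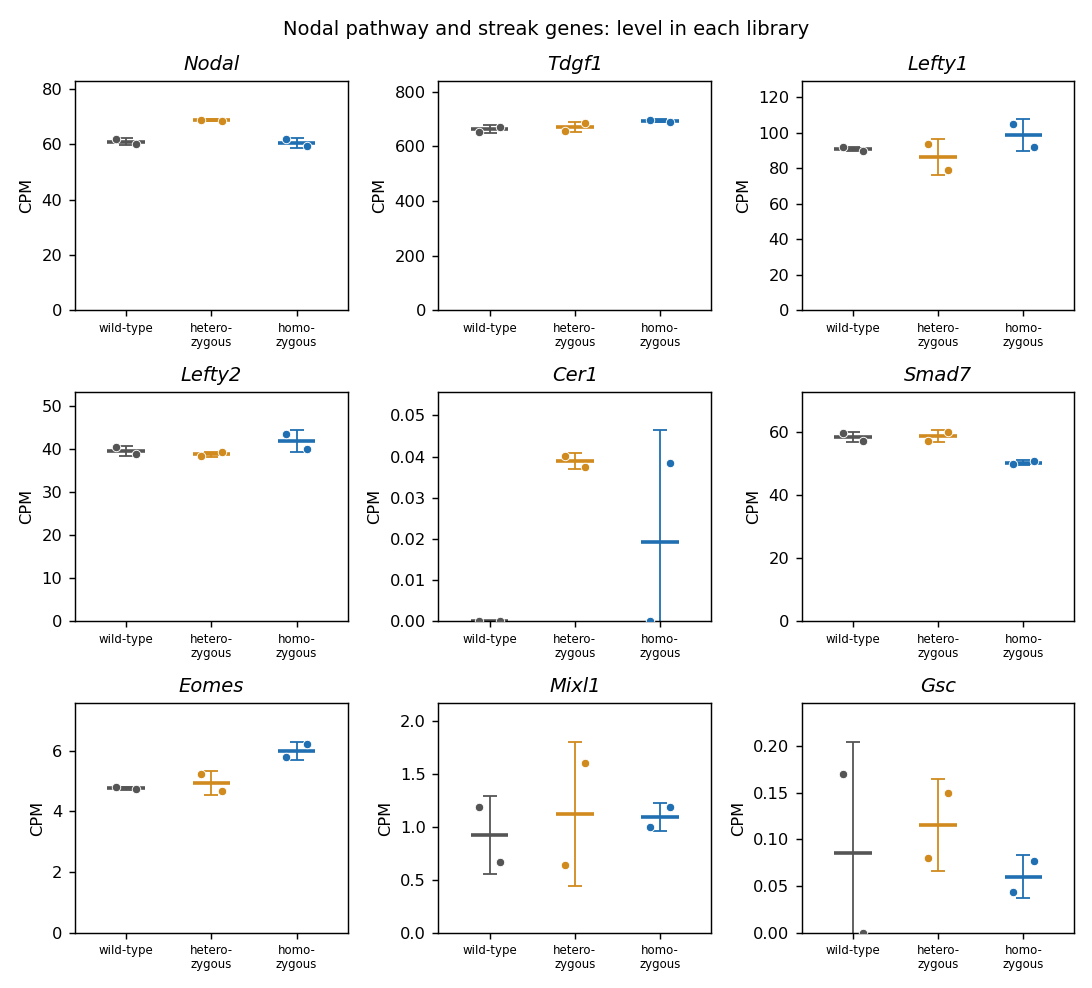
Level of each of the 9 genes in CPM, on a linear axis from 0, in the 2 libraries of each genotype. Points are libraries, thick lines are means and bars are 1 SD (bars are cut at 0). *Nodal* was higher in both heterozygous libraries (68.9 and 68.4 CPM) than in the other 4, and *Smad7* was lower in both homozygous libraries (49.6 and 50.7 CPM), whereas *Cer1* and *Gsc* stayed near 0.

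Of the 9 genes, *Smad7* fell in the homozygous deletion and no other tested member passed against wild-type in either deletion. Of the 7 genes tested, 0 passed an adjusted p of 0.05 in heterozygous against wild-type cells (edgeR quasi-likelihood test, Benjamini-Hochberg adjustment over 16951 genes), where 5.14% of all genes tested did, and 1, *Nodal*, had an unadjusted p below 0.05. In homozygous against wild-type cells 1 of 7 passed, *Smad7*, which fell, against 21.4% of all genes, and 2 were below 0.05 before adjustment. In homozygous against heterozygous cells 3 of 7 passed, *Lefty1* higher and *Nodal* and *Smad7* lower, against 25.8% of all genes. No member reached the absolute log2 fold change of 1 that the study set as its threshold, which 0.165%, 2.14% and 1.39% of all genes passed together with the adjusted p in these comparisons. The median log2 fold change of the 7 genes was 0.02, 0.08 and 0.05, beside 0.00, -0.01 and -0.02 over all genes tested. The libraries of the genotypes did not overlap for 1, 4 and 5 of the 7 genes, and 47.7%, 57.9% and 61.4% of all genes showed such a separation. Both deletions were compared with the same wild-type libraries, so their values are given side by side and are not independent.

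*Nodal*, the ligand (chr10:61417972-61425338, plus strand), gave 1820 and 1533 counts in wild-type libraries, 1716 and 1821 in heterozygous libraries and 1416 and 1543 in homozygous libraries. These correspond to 61.9 and 60.0 CPM, 68.9 and 68.4 CPM, and 61.8 and 59.2 CPM. Both heterozygous libraries thus lay above the other 4, and the wild-type and homozygous libraries overlapped. The means were 60.9 ± 1.35, 68.6 ± 0.385 and 60.5 ± 1.79 CPM (SD, n = 2 each). The difference of heterozygous from wild-type cells was 0.17 on the log2 scale (95% confidence interval 0.06 to 0.28) and missed the threshold in the edgeR fit of all 6 libraries with an adjusted p of 0.0591. Against the homozygous cells it passed, with *Nodal* lower in homozygous cells by a log2 fold change of -0.18 ± 0.0514 (SE) and an edgeR adjusted p of 0.0128, and homozygous and wild-type cells differed by -0.01 (interval -0.12 to 0.10, adjusted p = 0.91). The call between the deletions was lost in edgeR without heterozygous replicate 1, heterozygous replicate 2 or homozygous replicate 2 (log2 fold changes from -0.21 to -0.15 over all omissions, adjusted p = 0.0677, 0.0521 and 0.0737). With either homozygous library left out, the heterozygous difference from wild-type passed. With either wild-type or either heterozygous library left out, it did not pass. It ran from 0.15 to 0.19 on the log2 scale over these omissions. The DESeq2 test of all 6 libraries gave it an adjusted p of 0.273. The summed level of 7 primitive and visceral endoderm markers was also highest in heterozygous libraries. It was 18.9 to 19.8 CPM in wild-type, 20.8 to 22.1 in heterozygous and 14.9 to 16.0 in homozygous libraries. Most of this sum was *Dab2*, with means of 15.6, 15.6 and 11.2 CPM, and *Ttr* had 0 or 1 count in every library. Of the 4 tested markers 0 passed in heterozygous against wild-type cells (5.14% of all genes). Between the deletions 2 passed as lower in homozygous cells (12.9% of all genes). The part of these markers in the *Nodal* values was not tested.

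*Tdgf1*, which encodes the co-receptor Cripto (chr9:110939603-110946158, minus strand), was the most abundant and the steadiest of the 9 genes. Its counts ran from 15972 to 19142, or 651 and 672 CPM in wild-type libraries, 657 and 684 in heterozygous libraries and 697 and 689 in homozygous libraries. Both homozygous libraries lay above the other 4, by little. The homozygous mean was 693 ± 5.3 CPM against 662 ± 14.9 in wild-type (SD, n = 2 each), a log2 difference of 0.07 with an interval of -0.02 to 0.15 and an edgeR adjusted p of 0.261. Heterozygous cells differed from wild-type by 0.02 (interval -0.06 to 0.10). These intervals leave room for changes in *Tdgf1* of at most 0.15 on the log2 scale, and with total counts in place of TMM the homozygous difference from heterozygous cells changed sign, from 0.05 to -0.02.

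*Lefty1* and *Lefty2* encode secreted inhibitors that bind Nodal and its co-receptor. The genes lie 35.9 kb apart on chromosome 1 (*Lefty1* chr1:180935022-180938400, *Lefty2* chr1:180893108-180899103, both plus strand) and 106 Mb from *Wnt6*. Their coding sequences in the GRCm38 annotation are 1107 bases each and were identical at 91.9% of positions, with 90 mismatches. The 120-base window that held the most mismatches, 34, is shown from 5′ to 3′ with the mismatched bases in capitals, since reads from it can be told apart between the genes. It spans coding bases 46 to 165, at chr1:180935155-180935274 in *Lefty1* and chr1:180893229-180893348 in *Lefty2*.
Lefty1: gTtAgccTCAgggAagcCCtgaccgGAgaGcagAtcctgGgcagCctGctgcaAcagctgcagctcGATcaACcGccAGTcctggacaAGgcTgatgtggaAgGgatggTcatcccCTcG
Lefty2: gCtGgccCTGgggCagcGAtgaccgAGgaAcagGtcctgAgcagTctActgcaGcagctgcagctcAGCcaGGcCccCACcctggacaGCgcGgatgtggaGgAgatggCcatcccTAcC
Elsewhere stretches were shared, and 17.9% of the 50-base words of the *Lefty1* transcripts also occurred in those of *Lefty2*, 11.2% of the 75-base words and 4.8% of the 100-base words. The read length and the treatment of shared reads are not given in the sources used here, so the split between both genes is uncertain to that extent.

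*Lefty1* had 91.9 and 90.0 CPM in wild-type libraries, 93.6 and 79.1 in heterozygous libraries and 105 and 92.2 in homozygous libraries. The heterozygous libraries spanned the wild-type values, heterozygous replicate 1 lay above homozygous replicate 2, and both homozygous libraries lay above wild-type. *Lefty1* passed the test between the deletions, higher in homozygous cells by 0.19 ± 0.0675 (SE) on the log2 scale (interval 0.05 to 0.33, edgeR adjusted p = 0.0433). The libraries of those genotypes overlapped, and the difference shrank to 0.07 without heterozygous replicate 2 (adjusted p = 0.521) and to 0.10 without homozygous replicate 1 (0.34). It was also past the threshold no longer without wild-type replicate 1 (0.0592) or 2 (0.0538). Against wild-type the heterozygous value was -0.08 (interval -0.22 to 0.07) and the homozygous value 0.12 (interval -0.02 to 0.26), the latter at 0.21 with an edgeR adjusted p of 0.0195 without homozygous replicate 2.

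*Lefty2* was steadier than its neighbour, with 40.4 and 38.8 CPM in wild-type, 38.3 and 39.2 in heterozygous libraries and 43.6 and 40.1 in homozygous libraries. Homozygous libraries were above heterozygous ones, and both overlapped with wild-type. Its log2 fold changes were -0.03 in heterozygous cells (interval -0.16 to 0.10) and 0.08 in homozygous cells (interval -0.05 to 0.21) against wild-type, and 0.11 between the deletions (interval -0.02 to 0.24, edgeR adjusted p = 0.203). The sign of each was that of *Lefty1*. Of the 8 pluripotency markers, 7 passed as higher in homozygous than in heterozygous cells (12.9% of all genes), with a median log2 fold change of 0.19. Among these 7, *Zfp42* (0.53) lies on chromosome 8, where the median of 890 tested genes was 0.51. In heterozygous against wild-type cells 6 passed as lower (2.91% of all genes), with a median of -0.22. All 8 had the same sign as these calls in each of these comparisons. Their part in the Lefty values was not tested.

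*Cer1*, which encodes the secreted inhibitor Cerberus (chr4:82881751-82885148, minus strand), gave 0 and 0 counts in wild-type libraries, 1 and 1 in heterozygous libraries and 0 and 1 in homozygous libraries. All of these are at or below the floor of 3 counts, so no fold change is given and expression was not detectable at this depth. The feedback inhibitors thus differed widely in level, from *Lefty1* at 79.1 CPM or more in every library to *Cer1* at 1 count at most.

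*Smad7* encodes the inhibitory SMAD that blocks activated type I receptors (chr18:75367529-75395935, plus strand). It gave 1747 and 1460 counts in wild-type libraries, 1423 and 1594 in heterozygous libraries and 1137 and 1320 in homozygous libraries, or 59.4 and 57.1, 57.1 and 59.8, and 49.6 and 50.7 CPM. Both homozygous libraries lay below the other 4, and wild-type and heterozygous libraries overlapped. The homozygous mean was 50.1 ± 0.763 CPM against 58.3 ± 1.62 in wild-type and 58.5 ± 1.91 in heterozygous cells (SD, n = 2 each). *Smad7* fell in homozygous against wild-type cells to 0.86 of the level, a log2 fold change of -0.22 ± 0.0541 (SE) with an edgeR adjusted p of 0.00636, and by the same amount against heterozygous cells (-0.22 ± 0.0543, adjusted p = 0.00491). Heterozygous and wild-type cells differed by 0.01 (interval -0.11 to 0.12). Without wild-type replicate 1 the first of these differences was -0.19 with an adjusted p of 0.0948, and without heterozygous replicate 2 the second was -0.19 with 0.0613. *Smad7* was the only one of the 7 tested genes that passed against wild-type in the fit of all 6 libraries. Of the 12 fibroblast markers tested, 10 passed as lower in homozygous than in wild-type cells (10.5% of all genes). Between the deletions 9 passed as lower in homozygous cells (12.9%), and 7 in heterozygous against wild-type cells (2.91%). The medians were -1.12, -0.70 and -0.47, and 12, 12 and 11 of the 12 markers lay below 0. The part of fibroblasts in the *Smad7* values was not tested.

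Of the streak genes, *Eomes*, a T-box factor needed for mesoderm and definitive endoderm (chr9:118478212-118486132, plus strand), gave 141 and 121 counts in wild-type libraries, 130 and 124 in heterozygous libraries and 133 and 162 in homozygous libraries. In CPM these were 4.80 and 4.73, 5.22 and 4.66, and 5.80 and 6.22. Both homozygous libraries lay above the other 4, which overlapped. The homozygous mean of 6.01 ± 0.295 CPM against 4.77 ± 0.0429 in wild-type (SD, n = 2 each) gave the widest log2 difference from wild-type among the 7 tested genes in that comparison, 0.34 ± 0.13 (SE, interval 0.07 to 0.61). It missed the threshold with an edgeR adjusted p of 0.0723, and in the 13 alternatives this ranged from 0.0676 to 0.32. The difference from heterozygous cells was 0.29 (interval 0.02 to 0.56, adjusted p = 0.115).

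*Mixl1*, a homeobox gene of the streak (chr1:180693043-180697034, minus strand), gave 35 and 17 counts in wild-type libraries, 16 and 43 in heterozygous libraries and 23 and 31 in homozygous libraries. The libraries of all 3 genotypes overlapped, and the heterozygous replicates alone spanned 0.643 to 1.61 CPM. The intervals of its log2 fold changes were wide, -0.51 to 1.05 in heterozygous and -0.57 to 1.02 in homozygous cells against wild-type, so a difference was not detectable at this depth. *Gsc*, which encodes goosecoid, a homeobox factor of the organizer (chr12:104471209-104473330, minus strand), gave 5 and 0 counts in wild-type libraries, 2 and 4 in heterozygous libraries and 1 and 2 in homozygous libraries. It was under the count minimum in every genotype, and no difference was detectable.

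**Figure D2:**
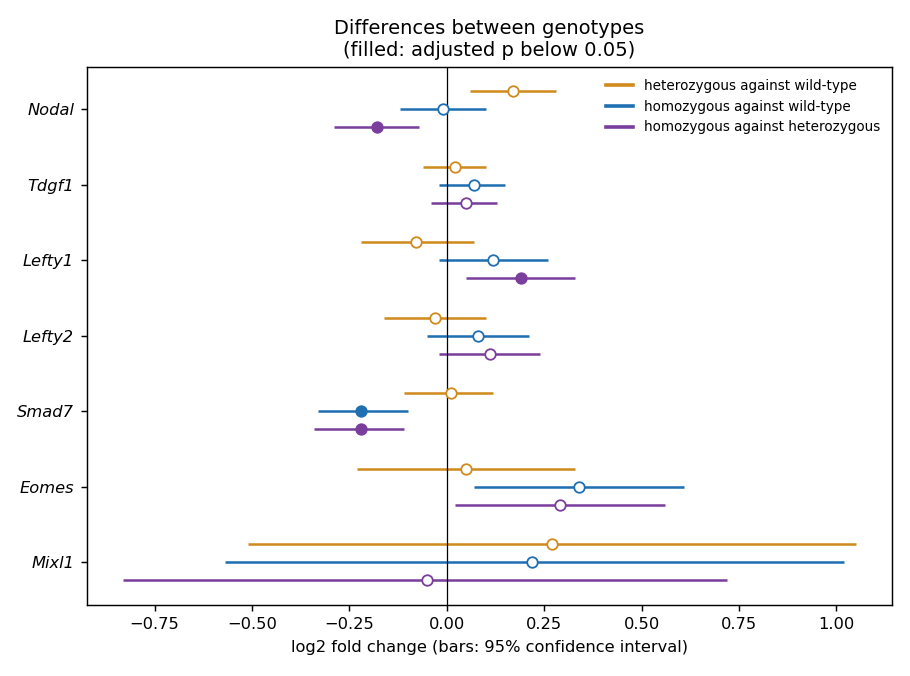
Log2 fold changes of the 7 tested genes (x axis) in the 3 comparisons, from the edgeR fit of all 6 libraries, with bars for the 95% confidence interval and filled points where the adjusted p was below 0.05. *Smad7* was lower by 0.22 in homozygous cells in both comparisons, *Nodal* and *Lefty1* passed only between the deletions, and *Mixl1* had the widest intervals.

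Other genes of the Nodal and activin pathway were measured on a list of 26, of which 23 were tested. *Gdf1*, a partner ligand of Nodal, was listed at 0 in every library, and *Acvr1c*, a type I receptor, and *Cfc1*, a co-receptor, stayed below the count minimum. In heterozygous against wild-type cells 0 rose and 3 fell, where 2.23% of all genes rose and 2.91% fell. In homozygous against wild-type cells 6 rose and 7 fell (10.9% and 10.5% of all genes), and between the deletions 7 were higher and 6 lower in homozygous cells (12.9% in each direction). The medians over the 23 genes were -0.02, 0.02 and -0.00, beside 0.00, -0.01 and -0.02 over all genes. Without wild-type replicate 1 fewer of the list passed in homozygous against wild-type cells, and fewer of all genes did.

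The activin ligand gene *Inhba* moved most on this list in homozygous against wild-type cells. It was at 208 and 202 CPM in wild-type libraries, 144 and 149 in heterozygous libraries and 94.9 and 92.5 in homozygous libraries. No genotypes overlapped, and the level fell by 0.49 ± 0.0433 (SE) on the log2 scale in heterozygous cells (edgeR adjusted p = 5.2e-07) and by 1.13 ± 0.0448 in homozygous cells (adjusted p = 5.43e-13). *Fst*, which encodes the activin antagonist follistatin, was at 15.4 and 16.4, 14.9 and 14.6, and 8.81 and 7.14 CPM, and fell to 0.50 of the wild-type level in homozygous cells (SE 0.102 on the log2 scale, adjusted p = 4.19e-07). *Pmepa1*, a TGF-β target that restrains SMAD signalling, fell by 0.27 in heterozygous cells (adjusted p = 0.00464) and by 0.69 in homozygous cells (1.72e-08), and the activin subunit gene *Inhbb* fell by 0.72 (0.000363) and 0.41 (0.00931). The heterozygous *Pmepa1* call was lost without wild-type replicate 1 (edgeR adjusted p = 0.0513), wild-type replicate 2 (0.0751) or heterozygous replicate 2 (0.0667), and the homozygous *Inhbb* call without wild-type replicate 1 (0.078) or homozygous replicate 1 (-0.25, 0.122). *Fstl3*, which encodes a follistatin-like antagonist, fell by 0.95 in homozygous cells (edgeR adjusted p = 0.0277), a call lost without wild-type replicate 1 (0.209), wild-type replicate 2 (0.0576) or homozygous replicate 2 (0.158). Fibroblast markers were lower in the same comparisons, with medians of -0.47 in heterozygous and -1.12 in homozygous cells against wild-type, and their part in these values was not tested.

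Of the list genes that rose, *Gdf3*, a TGF-β family ligand gene expressed in pluripotent cells, was higher by 0.44 ± 0.051 in homozygous than in heterozygous cells (edgeR adjusted p = 1.91e-06). *Dand5*, a Cerberus relative that inhibits Nodal, was at 1.97 and 1.88 CPM in wild-type and at 3.40 and 2.65 in homozygous cells, a log2 difference of 0.64 (edgeR adjusted p = 0.026) that did not pass without either wild-type replicate (0.114 and 0.121) or without homozygous replicate 1 (0.46, 0.202). *Dand5* lies on chromosome 8, where the median of 890 tested genes was 0.39 in that comparison and 0.51 between the deletions. On chromosomes 1, 4, 9, 10, 12 and 18, which hold the 9 genes, the medians were between -0.04 and 0.02 in all comparisons.

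Of the receptor and SMAD genes that carry the Nodal signal, *Smad4* passed against wild-type. The type I receptor gene *Acvr1b* differed by 0.11 and 0.02 from wild-type in heterozygous and homozygous cells (edgeR adjusted p = 0.496 and 0.899), and the type II receptor gene *Acvr2b* by -0.17 and 0.11 (0.216 and 0.261). *Smad4* rose by 0.21 in homozygous cells against wild-type (edgeR adjusted p = 0.00306) and by 0.23 against heterozygous cells (0.00163). *Smad2* and *Smad3*, the SMADs activated by Nodal, did not pass against wild-type in either deletion, with values of -0.03 and 0.11 for *Smad2* and 0.11 and -0.11 for *Smad3*. Between the deletions *Acvr2b* was higher in homozygous cells by 0.28 (edgeR adjusted p = 0.00525, and 0.0622 without heterozygous replicate 2), *Smad2* higher by 0.14 (0.0461) and *Smad3* lower by a log2 fold change of -0.22 (0.0207, and 0.117 without heterozygous replicate 2 or 0.0883 without homozygous replicate 1). The *Smad2* call was lost in 9 of 13 alternatives, with adjusted p up to 0.274, among them the omission of any library but homozygous replicate 2. *Foxh1* was higher by 0.15 in homozygous cells (edgeR adjusted p = 0.0292), a call that was lost in 6 of 13 alternatives, wild-type replicate 1, wild-type replicate 2 and homozygous replicate 1 being the libraries whose omission ended it (0.154, 0.109 and 0.102).

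Further genes of the streak and of mesendoderm were measured on a list of 15, of which 8 were tested. *Noto* was listed at 0 in every library, and *Mesp1*, *Msgn1*, *Evx1*, *Lhx1*, *Foxa2* and *Sox17* were under the count minimum. In heterozygous against wild-type cells 1 rose and 0 fell, in homozygous against wild-type cells 0 rose and 2 fell, and between the deletions 0 were higher and 4 lower in homozygous cells. The shares of all genes called in each direction are those given for the pathway list. The medians of the 8 genes were 0.05, -0.13 and -0.43. With homozygous replicate 2 or either heterozygous replicate left out, fewer of the list passed between the deletions. Without wild-type replicate 1 fewer passed in homozygous against wild-type cells. The calls over all genes fell in these fits as well, though by little without homozygous replicate 2.

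*T* (brachyury), the T-box gene that marks the streak, was at 3.81 and 3.40 CPM in wild-type libraries, 4.50 and 5.29 in heterozygous libraries and 2.23 and 2.19 in homozygous libraries. The libraries of the 3 genotypes did not overlap, with homozygous lowest and heterozygous highest. *T* fell in homozygous cells by 0.71 ± 0.178 (SE) against wild-type (edgeR adjusted p = 0.00651) and by 1.15 ± 0.17 against heterozygous cells (4.04e-05, to 0.45 of the level). The call against wild-type was lost in 2 of 13 alternatives, 1 of them the omission of wild-type replicate 1. The heterozygous difference from wild-type, 0.44, did not pass (adjusted p = 0.114). Among the 9 genes, *Eomes* had its highest values in the homozygous libraries, where *T* had its lowest.

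*Wnt3*, the WNT ligand that induces the streak, was at 5.41 and 4.19 CPM in wild-type libraries, 7.39 and 7.43 in heterozygous libraries and 5.54 and 5.18 in homozygous libraries. It rose in heterozygous cells by 0.62 ± 0.132 (SE, edgeR adjusted p = 0.00693). That call was lost in 3 of 13 alternatives, among them the omission of wild-type replicate 2 (log2 fold change 0.45) or heterozygous replicate 2. *Chrd*, which encodes the BMP antagonist chordin, was at 3.43 and 3.72, 3.82 and 2.85, and 1.70 and 1.92 CPM, and fell in homozygous cells by 0.97 ± 0.197 against wild-type (edgeR adjusted p = 0.00115). *Hhex*, a homeobox gene of anterior endoderm, was lower by 0.39 in homozygous than in heterozygous cells (edgeR adjusted p = 0.0367), and 7 of 13 alternatives did not keep that call, among them the omission of either wild-type library, heterozygous replicate 2 or either homozygous library (adjusted p from 0.0524 to 0.33). Summed over the 15 genes, the list held 21.5 to 23.2 CPM in wild-type, 26.5 to 26.7 in heterozygous and 18.7 to 18.9 in homozygous libraries. The sum of the endoderm markers given beside *Nodal* followed the same order. Most of that sum was *Dab2*, whose mean was 15.6 CPM in both wild-type and heterozygous cells, and *Sox17* was on both lists. The part of these markers in the streak values was not tested.

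**Figure D3:**
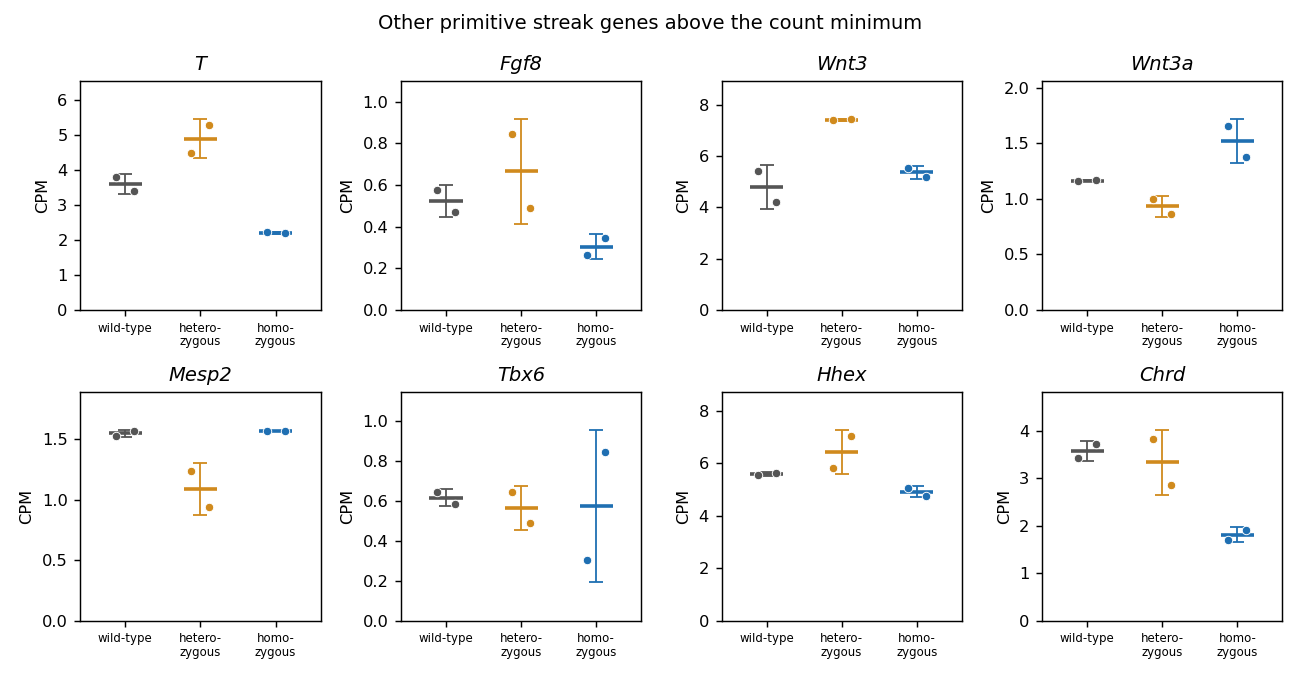
Level of the 8 tested genes of the streak and mesendoderm list in CPM, on linear axes from 0, in the 2 libraries of each genotype (points), with means (thick lines) and 1 SD (bars). *T* and *Chrd* were lowest in both homozygous libraries, and *Wnt3* was highest in both heterozygous libraries at 7.39 and 7.43 CPM.

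**Figure D4:**
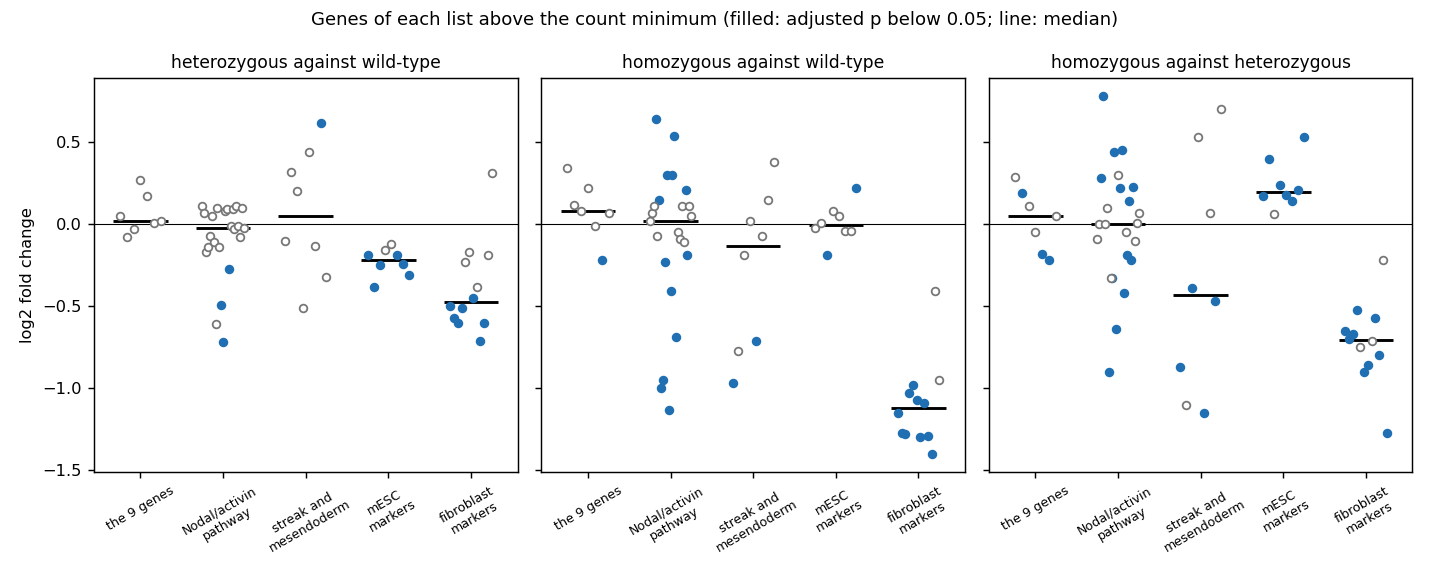
Log2 fold changes (y axis) of the tested genes of each list in the 3 comparisons, with the median as a line and filled points where the edgeR adjusted p was below 0.05. The 7 tested members of the 9 genes lay between -0.22 and 0.34 in all comparisons, while fibroblast markers had medians of -0.47, -1.12 and -0.70.

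Sequences upstream of the start were given for 5 of the 9 genes in the RefSeq table of GRCm38.p6, *Nodal*, *Tdgf1*, *Cer1*, *Eomes* and *Gsc*. The 250 bases before the start of the most abundant of these, of the ligand and of a gene near 0 are shown on the gene's strand, 5′ to 3′, with CG dinucleotides in capitals, because genes that Polycomb holds silent often have starts rich in CG. *Tdgf1* lies at chr9:110946159-110946408 (minus strand), *Nodal* at chr10:61417722-61417971 (plus strand) and *Cer1* at chr4:82885152-82885401 (minus strand).
Tdgf1: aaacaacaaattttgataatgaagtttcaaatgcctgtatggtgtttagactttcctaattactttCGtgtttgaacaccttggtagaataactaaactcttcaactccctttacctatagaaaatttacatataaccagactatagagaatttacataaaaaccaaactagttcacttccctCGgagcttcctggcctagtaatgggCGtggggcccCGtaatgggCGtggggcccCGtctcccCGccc
Nodal: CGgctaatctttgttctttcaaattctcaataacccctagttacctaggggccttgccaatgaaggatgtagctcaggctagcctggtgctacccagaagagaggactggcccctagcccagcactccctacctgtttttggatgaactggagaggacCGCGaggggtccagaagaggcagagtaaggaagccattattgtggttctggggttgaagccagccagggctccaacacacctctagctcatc
Cer1: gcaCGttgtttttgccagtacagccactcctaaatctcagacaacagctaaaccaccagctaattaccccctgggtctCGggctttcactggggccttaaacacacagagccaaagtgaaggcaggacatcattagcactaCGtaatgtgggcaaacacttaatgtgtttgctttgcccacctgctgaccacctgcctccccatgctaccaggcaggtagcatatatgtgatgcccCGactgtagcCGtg
These windows held 7 CG dinucleotides in *Tdgf1*, 3 in *Nodal* and 5 in *Cer1*, against a median of 6 over 32851 promoters, which placed them at the 57, 37.8 and 49.6 percentiles. *Eomes* had 8. *Gsc* had 22, but its window overlaps the gene as GENCODE places it, since that annotation starts *Gsc* further upstream than RefSeq, and so this number is not set beside the others. Both strands were searched, and the letters CAGAC, a short SMAD motif, occurred 1 time each in the windows of *Tdgf1* and *Cer1*. They occurred in 42.2% of all promoters. The letters AATCCACA of a FOXH1 motif (0.718% of promoters) and AGGTGTGA of a T-box motif (1.12%) occurred in none of the 5 windows. A match describes the letters alone.

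Genes most like 2 of the members in their levels were listed by Pearson's r of log2 CPM over the 6 libraries, as a description, since the points share genotype and library and 302 of 16950 genes reached an r of 0.9 with *Nodal*. The closest to *Nodal* were *4933413J09Rik* (r = 0.9939), *Gm2011* (0.991) and *Cubn* (0.991), the gene of the endocytic receptor cubilin. *Gm2011* lay at 0.154 to 0.602 CPM, near the floor, and *4933413J09Rik* at 0.653 to 1.2 CPM. *Cubn* was at 2.01 and 1.72 CPM in wild-type libraries, 4.54 and 4.58 in heterozygous libraries and 2.18 and 1.77 in homozygous libraries, so it was high in the same libraries as *Nodal* with a wider span. The closest to *Eomes*, the member with the largest fitted difference from wild-type in homozygous cells, were *Raver2* (r = 0.9979), *Elovl4* (0.996) and *Npepl1* (0.9954), and 394 genes reached 0.9. *Elovl4*, which encodes an enzyme that elongates very long fatty acids, was at 12.6 and 12.4, 13.9 and 12.1, and 15.2 and 16.1 CPM, highest in the homozygous libraries like *Eomes*.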

How the data were processed

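PolyA RNA was sequenced from stranded libraries of wild-type, heterozygous and homozygous *Wnt6* anchor deletion mESCs (2 libraries each). Whole-number read counts for each gene, not normalized, were deposited by the authors. The submitters' processing notes name Trimmomatic 0.39, STAR 2.6.1d, SAMtools 1.9, featureCounts 1.6.4, DESeq2 1.22.2 and the mm10 (GRCm38) build, and the annotation release is not given in the sources used here.

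The 16951 genes that reached 10 counts in 2 or more libraries entered the test, TMM factors were computed, and 3 genotypes were fitted to all 6 libraries in 1 edgeR 4.0.16 quasi-likelihood model (R 4.3.3, limma 3.58.1). Benjamini-Hochberg adjustment covered all genes tested, and a call was an adjusted p below 0.05. CPM, RPKM, gene positions and exon lengths used TMM-scaled totals and GENCODE M21, and 55144 gene identifiers matched it. Sequences came from that genome build and RefSeq. The fit was also run on counts simulated with the spread that it had itself estimated, which checks the code and cannot judge that spread. Named were all 9 genes, 7 core genes of the lists, the called list genes (at most 5 per list and comparison by size) and the 3 genes most like *Nodal* and like the member with the largest homozygous difference. The values of 1 called gene of the pathway list, which counts in its totals, are not reported here. Trophoblast and endoderm marker genes were named after their values were seen. The members and lists were chosen with earlier results of these data known. Alternatives were DESeq2 1.42.0, its size factors, total counts, other filters, only the genotypes compared, a replicate block, the fold threshold and each library left out. Replicate numbers shared between genotypes did not pair the libraries. Figures were drawn in Python 3.11.15 with matplotlib 3.10.9.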

Additional observations from a re-analysis of the deposited data

Results flagged for a closer look

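In 3 of the 7 tested members the effects of the heterozygous and the homozygous deletion differed by the direct edgeR test between them. The homozygous minus heterozygous log2 difference was -0.18 for *Nodal*, 0.19 for *Lefty1* and -0.22 for *Smad7*. For *Nodal* the heterozygous libraries were the ones that stood apart, for *Smad7* the homozygous ones, and for *Lefty1* the libraries overlapped. Among the named pathway genes the difference was -0.64 for *Inhba*, -0.90 for *Fst*, -0.42 for *Pmepa1*, -0.22 for *Smad3*, 0.14 for *Smad2*, 0.23 for *Smad4*, 0.28 for *Acvr2b*, 0.44 for *Gdf3* and 0.78 for *Dand5*. Among the streak genes it was -1.15 for *T*, -0.87 for *Chrd*, -0.47 for *Wnt3* and -0.39 for *Hhex*. Of all genes tested 25.8% passed this comparison. Among 13 alternatives the call was lost in 4 for *Nodal*, 6 for *Lefty1* and 1 for *Smad7*. It was lost in 9 for *Smad2*, 3 for *Smad3*, 1 for *Acvr2b* and 3 for *Dand5*. Of the streak genes it was lost in 4 for *Wnt3*, 7 for *Hhex* and 1 for *Chrd*. The other calls named here were kept in all of them.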

How the results depend on the processing

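Fold changes of the 7 tested members gave 273 values over 21 differences and the alternatives, of which 256 kept their side of the threshold, 12 lost a call and 5 gained one. The sign changed in 13 values of 9 differences, 0 of which were called (*Mixl1* ran from -0.55 to 0.77 with a library left out), and in 2 values DESeq2 gave no adjusted p. The 49 differences of list genes gave 637 values, of which 65 lost a call and 3 changed sign, 0 of them in a called difference. With the replicate block the members past the threshold numbered 0, 1 and 3 in heterozygous against wild-type, homozygous against wild-type and homozygous against heterozygous cells, as without it, the pathway genes 3, 13 and 12, and the streak genes 1, 2 and 4. *Smad2* between the deletions was the named gene whose call the block ended (adjusted p = 0.059). Deviations of same-numbered libraries correlated at 0.0261, -0.0944 and 0.00865. In heterozygous against wild-type cells 1 member, *Nodal*, passed with total counts only (adjusted p = 0.0445) and 1 with only those genotypes in the fit (0.0263), and 0 to 1 with a library left out. With a library left out 0 to 2 members passed in homozygous against wild-type cells and likewise 0 to 2 between the deletions. DESeq2 left 1 member between the deletions, *Smad7*, with *Nodal* at 0.0739 and *Lefty1* at 0.0597, and total counts put *Lefty1* at 0.187. DESeq2 also gave 7 pathway genes in homozygous against wild-type cells, and 0, 1 and 2 streak genes in the 3 comparisons. Over all genes it called 476, 2243 and 2770, where the main fit called 871, 3633 and 4371. With the fold threshold added, 0 members passed in any comparison, 0, 2 and 0 pathway genes (*Inhba* and *Fst*) and 0, 0 and 1 streak genes (*T*). With a library left out the pathway count in homozygous against wild-type cells was 7 to 13, and the streak counts were 0 to 1, 1 to 2 and 2 to 3. The number of calls over all genes changed with these omissions as well, and the causes of these differences were not tested. Total counts in place of TMM moved the median of all genes to -0.063 and -0.086 in the homozygous comparisons and the share of calls that were higher from 50.8% and 50.1% to 31.9% and 29.4%. With 2 libraries per genotype and at most 43 counts per library for *Mixl1*, 5 or fewer for *Gsc* and 1 or fewer for *Cer1*, differences of these genes could not be resolved.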

Other observations

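Markers of trophoblast, an extraembryonic lineage, were read as a further list of 5 genes, of which 4 were tested. Their summed level was 13.3 to 14.6 CPM in wild-type, 20.9 to 22.1 in heterozygous and 18.2 to 21 in homozygous libraries. *Krt7*, a keratin gene, rose by 0.66 in heterozygous cells (edgeR adjusted p = 0.000294) and by 0.49 in homozygous cells (0.00155) against wild-type, and *Gata3*, a trophoblast transcription factor, rose by 0.92 in homozygous cells (0.00114). *Cdx2* and *Hand1* passed in neither, and *Elf5* had 5 counts at most. Against wild-type, 1 of the 4 tested genes thus passed as higher in heterozygous cells (2.23% of all genes) and 2 in homozygous cells (10.9%). Between the deletions 0 passed (25.8% of all genes in either direction), with a median log2 fold change of -0.33. The genes of this list were named after their values were seen. *Eomes*, which trophoblast also expresses, had 4.77 ± 0.0429, 4.94 ± 0.4 and 6.01 ± 0.295 CPM in these genotypes (SD, n = 2 each), and a relation with this list was not tested.

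Definitive endoderm genes of the streak list stayed near the floor. *Sox17* gave 5 and 0 counts in wild-type libraries, 9 and 9 in heterozygous libraries and 3 and 1 in homozygous libraries. *Foxa2*, a forkhead factor of endoderm and notochord, had 13 and 8, 7 and 8, and 2 and 2 counts. Both were under the count minimum, and in a fit over all genes with any count *Sox17* in heterozygous against wild-type cells had an edgeR adjusted p of 0.19 and *Foxa2* of 0.85. Fold changes against the homozygous cells are not given for them, because neither gene exceeded the floor of 3 counts in the homozygous libraries.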
